A study of Mus musculus with 4 samples.

Results

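Genes of the smooth muscle contractile apparatus were followed through primary tumours and lungs of tumour-bearing mice. They are Acta2, Tagln, Myh11, Cnn1, Des and Actg2, taken by symbol, and they make up 6 of the 19465 genes counted. BALB/c mice, 8 weeks old when injected, received 100000 cells of 4T1, a metastatic mammary carcinoma line from BALB/c mice, into the mammary fat pad, and tissue was taken 28 days later. Sections 4 µm thick of formalin-fixed, paraffin-embedded primary tumour and lung were placed on Visium slides. Each of 2 mice, labelled Mouse_627 and Mouse_628, gave 1 section of each tissue, so every tissue has n = 2, with tumour and lung paired within an animal. Each lung came from a mouse that bore a tumour, and a lung of an uninjected mouse was not analysed here. In this assay probe pairs against each gene are captured on barcoded spots and counted as unique molecular identifiers (UMIs). Since 1 spot usually covers more than 1 cell, of mixed types, a low level in it can mean fewer smooth muscle cells or less RNA per cell, and these cannot be told apart.

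Smooth muscle cells contract when myosin thick filaments slide along actin thin filaments. ACTA2 and ACTG2 are the smooth muscle actins of the thin filament, MYH11 is the smooth muscle myosin heavy chain, and CNN1 (calponin) and TAGLN (transgelin, SM22) bind actin. DES (desmin) forms the intermediate filaments of muscle cells, striated muscle included. In the lung such cells wrap the airways and the larger vessels. Activated fibroblasts of tumour stroma, myofibroblasts, also make ACTA2 and TAGLN, while MYH11 marks differentiated smooth muscle more strictly. The contrast of airway and vessel wall with tumour stroma therefore asks where Acta2 and Tagln are found with Myh11 and where without.

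In the mouse genome build mm10 (GENCODE M21) Acta2 lies at chr19:34241090-34255590 on the minus strand, Tagln at chr9:45929619-45936058 (minus), Myh11 at chr16:14194535-14291372 (minus), Cnn1 at chr9:22099216-22109630 (plus), Des at chr1:75360329-75368579 (plus) and Actg2 at chr6:83512905-83536265 (minus). Acta2 and Actg2 encode near relatives, with 84.4% identity over 1131 aligned bases of their coding sequences, so probes that bind both cannot be told from these counts. The promoters of 3 members were found in the RefSeq promoter table (build GRCm38.p6), and they are shown because these genes moved together in the lung. Each runs from 250 bases before to 50 bases after the start of the gene. They lie at chr19:34255324-34255623 (Acta2, minus), chr9:22099003-22099302 (Cnn1, plus) and chr1:75360042-75360341 (Des, plus). Capitals mark the CArG box, the motif that binds serum response factor, searched as CCNNNNNNGG with at most 1 letter other than A or T among its 6 central letters. The motif is its own reverse complement, so the search covers both strands.
Acta2: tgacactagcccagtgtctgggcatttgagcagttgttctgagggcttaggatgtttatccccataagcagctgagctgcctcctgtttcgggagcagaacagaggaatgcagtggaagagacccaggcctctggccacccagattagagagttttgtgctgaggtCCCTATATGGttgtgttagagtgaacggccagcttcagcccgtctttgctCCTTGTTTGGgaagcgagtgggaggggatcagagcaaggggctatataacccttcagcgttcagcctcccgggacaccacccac
Cnn1: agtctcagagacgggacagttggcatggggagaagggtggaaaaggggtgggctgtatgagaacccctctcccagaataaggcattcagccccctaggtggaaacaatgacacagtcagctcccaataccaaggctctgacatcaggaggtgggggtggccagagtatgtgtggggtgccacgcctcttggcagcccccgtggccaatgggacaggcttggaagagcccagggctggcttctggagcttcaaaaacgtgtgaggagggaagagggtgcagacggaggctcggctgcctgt
Des: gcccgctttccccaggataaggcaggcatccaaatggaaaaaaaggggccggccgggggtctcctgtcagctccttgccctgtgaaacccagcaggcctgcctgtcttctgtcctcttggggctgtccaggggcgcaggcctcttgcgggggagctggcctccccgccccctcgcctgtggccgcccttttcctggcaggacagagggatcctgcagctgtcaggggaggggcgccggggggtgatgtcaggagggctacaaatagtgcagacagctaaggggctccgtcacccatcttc
The Acta2 promoter held 2 such boxes, beginning 84 and 34 bases before the start (positions -84 and -34), and the windows of Cnn1 and Des held 0. Of all 32851 promoters in the table, 9.98% held at least 1 such box and 1.63% held one with only A and T at its centre, a form found in none of these 3 windows. A match here is a description of letters and not of binding.

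Of 9445 spots under tissue, 9339 with over 200 genes were kept, with 13532158 and 10890154 UMIs in the primary tumours of Mouse_627 and Mouse_628 and 11122812 and 30240176 UMIs in their lungs. The level of unspecific probe signal was read from 1178 olfactory and vomeronasal receptor genes, which these tissues are not known to use. Its median was 0.591 CPM, the UMIs of a gene in counts-per-million of its section, in the primary tumour of Mouse_627 and 6.61 CPM in that of Mouse_628, against 0.180 and 0.132 CPM in the lungs. The 95th percentile of the receptor genes was 1.70, 19.0, 0.539 and 0.397 CPM in the same order. Thus the primary tumour of Mouse_628 carried the highest background, and low levels there were read against it. The labelled tissues held their markers, with alveolar markers at 13036 and 7355 CPM in the lungs against 22.9 and 56.0 CPM in the primary tumours, and 4T1 carcinoma markers at 4408 and 5316 CPM in the primary tumours against 399 and 1546 CPM in the lungs. Heart muscle markers were also found in the lung sections, in 21 and 97 spots rich in striated muscle. Of slide barcodes, 1341 occurred in all 4 sections, which are positions on the slide and not shared cells. Intervals given below are exact 95% intervals and cover counting error only.

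**Figure D1:**
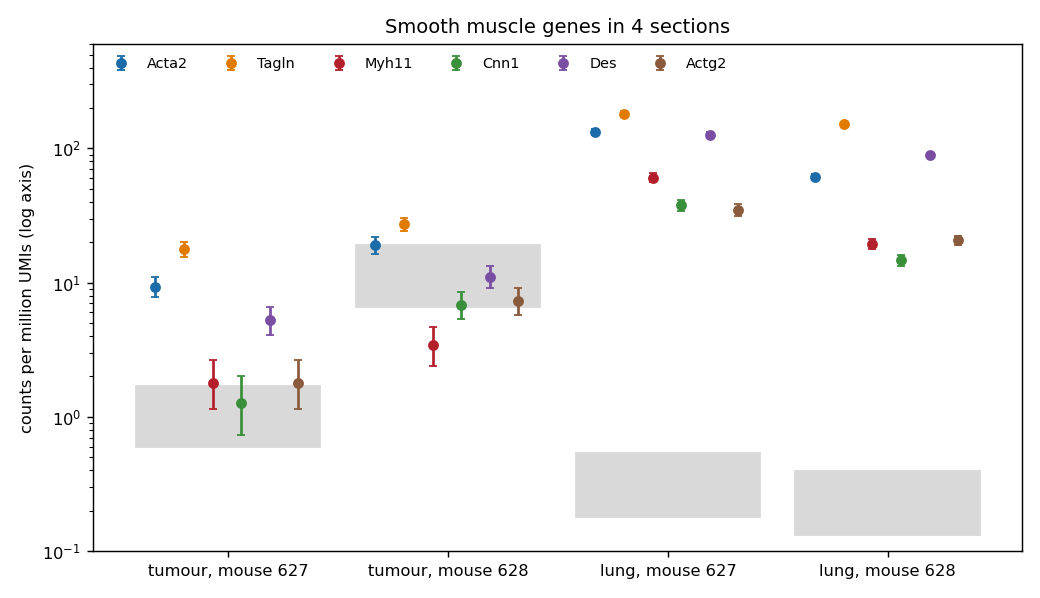
Level of each gene in counts-per-million (CPM) (log axis) in the 4 sections, with exact 95% Poisson intervals as bars. The grey boxes run from the median to the 95th percentile of the receptor genes that mark background; all 6 genes stand far above it in both lungs, while in the primary tumour of Mouse_628 Tagln alone is above it.

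All 6 genes were higher in both lungs than in both primary tumours. Acta2 measured 133 CPM in the lung of Mouse_627 and 61.2 CPM in that of Mouse_628, against 9.31 and 18.9 CPM in their primary tumours. Tagln measured 181 and 151 CPM in the lungs against 17.7 and 27.2 CPM in the tumours. Myh11 measured 60.3 and 19.4 CPM in the lungs against 1.77 and 3.40 CPM. For each of these 3 genes the groups did not overlap. Cnn1 stood at 37.8 and 14.6 CPM in the lungs against 1.26 and 6.80 CPM in the tumours. Des stood at 126 and 89.2 CPM against 5.25 and 11 CPM. Actg2 stood at 34.7 and 20.7 CPM against 1.77 and 7.25 CPM. Such a separation, with both lungs above both tumours, was seen in 21.3% of the 15267 genes tested.

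The excess of the lung differed between the mice. In Mouse_627 it ran from 10.2-fold (Tagln) to 34.0-fold (Myh11), and in Mouse_628 from 2.15-fold (Cnn1) to 8.09-fold (Des). The lung of Mouse_627 held more of every member than that of Mouse_628, by 1.2-fold for Tagln and by 3.11-fold for Myh11. Carcinoma markers were at 1546 CPM in the lung of Mouse_628 and at 399 CPM in that of Mouse_627, and their part in this was not tested.

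In the quasi-likelihood test of edgeR, adjusted over all genes after Benjamini and Hochberg, 5 of the 6 genes passed, against 7.46% of all genes tested. The fitted difference was largest for the myosin gene Myh11, at 4.33 on the log2 scale (SE 0.70, adjusted p = 0.00912), followed by Des with 4.07 (SE 0.49, adjusted p = 0.00419). In Mouse_628 alone the fold of Des (8.09) was above that of Myh11 (5.70), and differences between genes were not tested. Tagln rose by 3.21 (SE 0.41, adjusted p = 0.00435), Acta2 by 3.16 (SE 0.55, adjusted p = 0.0117) and Actg2 by 2.99 (SE 0.68, adjusted p = 0.0308). Cnn1 had a log2 difference of 3.10 (SE 0.81) and an adjusted p of 0.0507. With scaling by library totals alone edgeR called 3 of the 6, and Acta2 (2.76, adjusted p = 0.0539) and Actg2 (2.60, adjusted p = 0.118) no longer passed. With the mouse as a block, edgeR called all 6 as higher in the lung (9.17% of all genes were so called), and the adjusted p of Cnn1 was 0.000515. Without the lung of Mouse_627, 3 of the 6 were called. In Mouse_628 most of these genes had a primary tumour level at or near background, so the folds of that mouse compare with a floor of unspecific signal.

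The partners of these genes in the contractile apparatus were read from 38 other smooth muscle genes in 5 lists. Of the 37 that were tested in edgeR, 7 rose in the lung and 0 fell (9 and 0 with the mouse as a block). Among the genes of the myosin light chains, 3 of 5 tested rose, namely Ppp1r14a, an inhibitor of myosin phosphatase (log2 difference 4.19, adjusted p = 0.00467), Myl9, the regulatory light chain (3.57, adjusted p = 0.0164), and Mylk, the kinase that activates it (2.52, adjusted p = 0.00966). Of 10 thin filament genes only Tpm2, a tropomyosin of smooth muscle, rose (3.31, adjusted p = 0.00524), and the median of that list was 0.16 against -0.00 over all genes. Of 9 genes of dense bodies and attachment, Pgm5 (2.69, adjusted p = 0.0426) and Itga8 (2.47, adjusted p = 0.0409) rose. Of 9 genes of ion handling and receptors, the endothelin receptor gene Ednra rose (2.06, adjusted p = 0.0325). None of 4 transcriptional regulators was called by edgeR without the block, and Mrtfa, a cofactor of serum response factor, stood at 159 and 76.6 CPM in the lungs against 53.9 and 52.9 CPM in the tumours (adjusted p = 0.0921 without and 0.0145 with the block). Pericytes, the mural cells of small vessels, share genes with smooth muscle, and 4 of 9 pericyte markers rose as well, led by Higd1b (3.40, adjusted p = 0.00933).

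The genes were concentrated in few lung spots. Spots with at least 5 UMIs held 47.7% of Acta2 UMIs in the lung of Mouse_627 (84 of 1697 spots) and 24.5% in that of Mouse_628 (59 of 2780 spots). For Tagln the same share was 49.0% and 49.2%, and the richest spot held 40 and 32 UMIs. Myh11 reached at most 20 and 10 UMIs in a spot of the lungs. In both primary tumours its highest count in any spot was 1, and Tagln reached 3 and 17. Acta2 was detected in 33.9% and 34.4% of lung spots and in 4.70% and 5.61% of tumour spots, where a receptor gene was detected on average in 0.134%, 0.168%, 0.393% and 3.50% of spots. After thinning to 1000 UMIs a spot, Acta2 was detected in 9.91% and 5.76% of lung spots and in 0.983% and 1.72% of tumour spots, the last no higher than the 1.84% of a receptor gene.

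**Figure D2:**
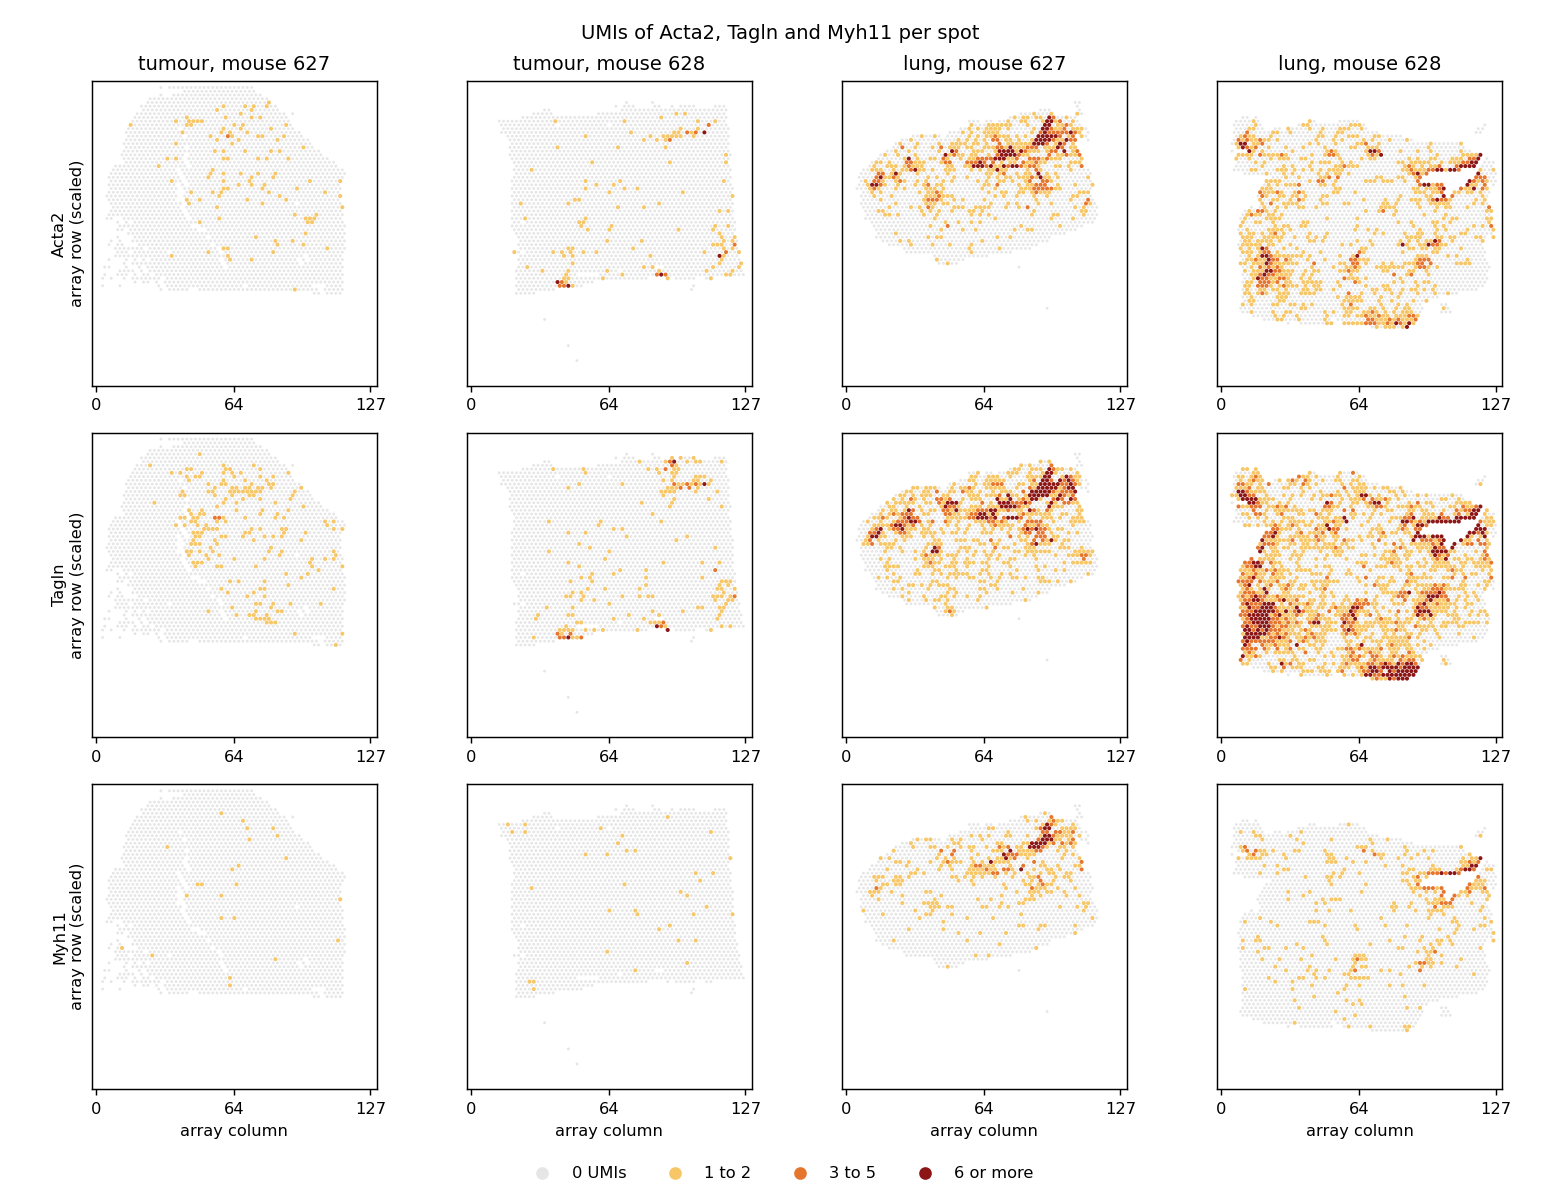
Positions of the kept spots on the slide array (column against scaled row), one panel for each section (columns) and for Acta2, Tagln and Myh11 (rows), coloured by UMIs in the spot. In the lung of Mouse_627 the 3 genes lie along the same tracks, in that of Mouse_628 dense fields of Tagln at the left and lower edge hold few Myh11 UMIs, and in the primary tumours Myh11 appears as isolated single UMIs.

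To place the genes, spots with at least 1000 UMIs and without striated muscle were ranked by the share of their UMIs in marker genes, and the highest 5% formed a class. Such a class is a range of a score and not a cell type, and 40 and 62 lung spots lay close to the limit of the airway class. For the vessel class described below these were 155 and 227 spots, for the carcinoma-rich lung class 127 and 306 and for the fibroblast-rich tumour class 152 and 118, in each case more than the class itself holds. The airway-rich class had 83 and 134 spots. Its epithelial markers, such as the club cell genes Scgb3a2 and Cyp2f2 and the ciliated cell gene Foxj1, reached 12357 and 12306 CPM against 1129 and 400 CPM in other lung spots.

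All 6 genes were higher in airway-rich spots than in other lung spots of both mice, and such a direction in both mice was seen in 34.6% of all genes. Acta2 measured 440 and 327 CPM in airway-rich spots against 115 and 49.0 CPM in the other lung spots. Tagln measured 547 and 629 CPM against 159 and 128 CPM. Myh11 measured 235 and 176 CPM against 50.3 and 12.4 CPM. The mice differed less in the airway class than in the other lung spots, where each of the 3 genes was lower in Mouse_628. Cnn1 reached 155 and 147 CPM against 30.8 and 9.34 CPM. Des reached 393 and 409 CPM against 106 and 65.5 CPM. Actg2 reached 122 and 193 CPM against 28.6 and 13.2 CPM. The folds ran from 3.45 to 5.04 in Mouse_627 and from 4.90 to 15.7 in Mouse_628.

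In edgeR without a block 3 of the 6 passed (background 3% of 13047 genes), namely Tagln with a log2 difference of 1.91 (SE 0.33, adjusted p = 0.0383), Des with 2.09 (SE 0.37, adjusted p = 0.0407) and Actg2 with 2.79 (SE 0.50, adjusted p = 0.0408). Cnn1 (2.78, adjusted p = 0.0707), Acta2 (2.09, adjusted p = 0.0878) and Myh11 (2.57, adjusted p = 0.126) did not. The calls depended on the choice of spots. With the highest 10% of spots as the class, or with striated muscle spots kept, 0 of the 6 passed, although the Tagln difference was 1.92 and 1.91. With the highest 2% of spots 6 passed. The mouse as a block, which compares spots within each section, called 6 of 6 as higher (10.9% of all genes were so called), with the largest adjusted p at 1.76e-09 for Tagln. Of the 37 other smooth muscle genes tested, 1 rose without the block, Tpm2 (2.38, adjusted p = 0.0338), and 9 rose with it, among them Mylk (adjusted p = 2.42e-05) and the muscarinic receptor gene Chrm2 (adjusted p = 1.25e-08). Without the airway-rich sum of Mouse_628, edgeR without a block called 0 of the 6. Heart muscle markers were also higher in airway-rich spots, at 481 and 429 CPM against 190 and 207 CPM, and their part in the Des level was not tested.

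Distance from the airways gave a graded picture. Spots were grouped by the number of steps on the hexagonal array to the nearest airway-rich spot. In the lung of Mouse_627 Acta2 went from 440 CPM in the airway-rich spots to 332, 196 and 140 CPM at 1, 2 and 3 steps and 51.2 CPM at 6 to 10 steps. Myh11 went from 235 to 146, 84.1, 64.7 and 18.1 CPM at the same distances. In the lung of Mouse_628 Acta2 went from 327 to 150, 62.1, 42.7 and 29.8 CPM, and Myh11 from 176 to 87.3, 28.9, 15.5 and 6.31 CPM. Up to this distance all 6 genes were lower in both mice than in the airway-rich spots.

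Beyond 10 steps in Mouse_628, Myh11 was lower than at 6 to 10 steps, Des was nearly level and the other 4 genes were higher. There, in 510 spots, Acta2 stood at 59.2 CPM and Tagln at 171 CPM, above their levels at 6 to 10 steps (29.8 and 77.2 CPM), while Myh11 stood at 3.19 CPM, below its 6.31 CPM. Cnn1 stood at 7.47 CPM against 2.25 CPM at 6 to 10 steps, Actg2 at 9.45 against 5.74 CPM and Des at 45.8 against 46.5 CPM. In Mouse_627 Myh11 was higher beyond 10 steps than at 6 to 10 (26.7 against 18.1 CPM), as were Acta2 (72.0 against 51.2 CPM) and Tagln (117 against 93.7 CPM). Des (87.4 against 64.1 CPM) and Actg2 (24.0 against 12.6 CPM) were higher too, while Cnn1 was at 11.3 against 12.6 CPM. Myh11 thus did not part from Acta2 and Tagln in that mouse. Myh11 made up 5.11% of Myh11 and Acta2 UMIs together in the far spots of Mouse_628, against 35.0% in the airway-rich spots. In Mouse_627 the share was 27.0% beyond 10 steps and 34.8% in the airway-rich spots. The far spots of Mouse_628 held carcinoma markers at 2175 CPM and alveolar markers at 4706 CPM, against 555 and 5876 CPM in its airway-rich spots, and the far spots of Mouse_627 held them at 483 and 15803 CPM. Mesothelium markers were at 436 CPM in the far spots of Mouse_628 against 138 CPM in its airway-rich spots. From 6 to 10 steps to beyond 10 steps in Mouse_628, fibroblast markers went from 1454 to 2088 CPM and the collagen gene Col1a1 from 353 to 791 CPM. Carcinoma markers went from 1511 to 2175 CPM and alveolar markers from 8938 to 4706 CPM. In Mouse_627 fibroblast markers went from 758 to 806 CPM and Col1a1 from 106 to 117 CPM. The part of these markers was not tested.

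**Figure D3:**
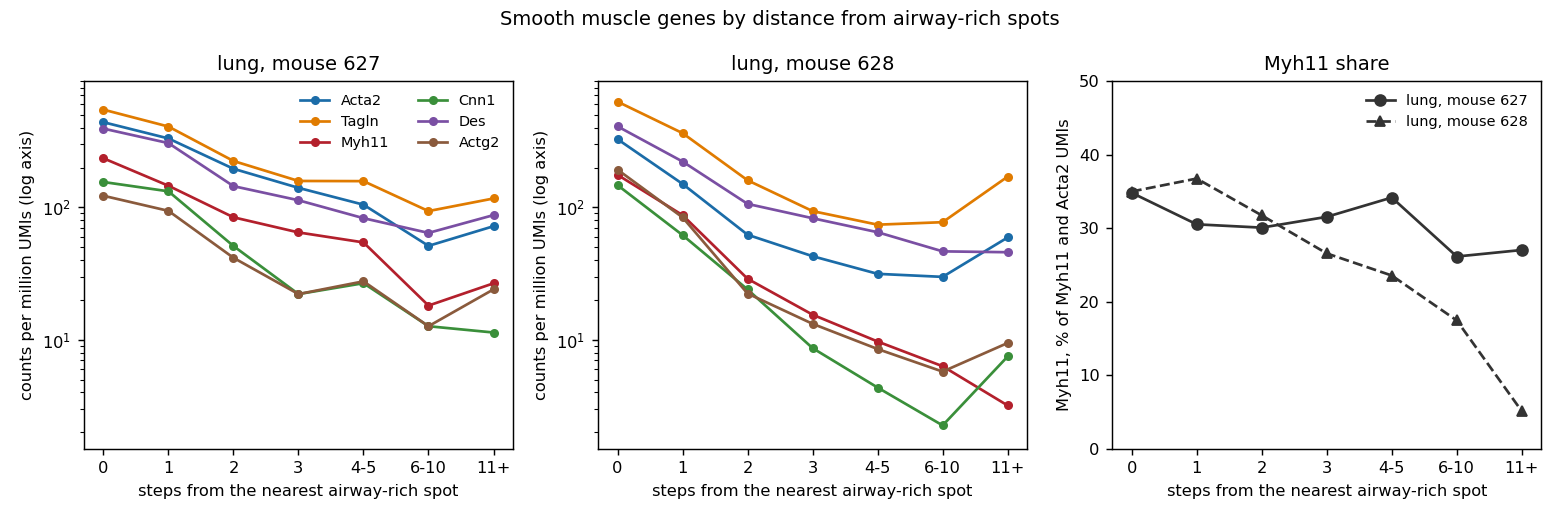
Counts-per-million (CPM) (log axis) of the 6 genes by steps from the nearest airway-rich spot in the lungs of Mouse_627 (left) and Mouse_628 (middle), and the percentage of Myh11 among Myh11 and Acta2 UMIs (right). Points are sums over all spots at that distance; in Mouse_628 Acta2, Tagln, Cnn1 and Actg2 are higher beyond 10 steps than at 6 to 10 while Myh11 is at its lowest, 3.19 CPM.

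Other genes of the contractile apparatus were read in the same far spots, here against airway-rich spots. By that baseline Acta2 (59.2 against 327 CPM) and Tagln (171 against 629 CPM) were also lower in the far spots of Mouse_628, as were Tpm2 (74.8 against 537 CPM) and Mylk (58.0 against 189 CPM). Lmod1, which nucleates actin filaments in smooth muscle, stood at 2.09 CPM in them against 40.4 CPM in the airway-rich spots of Mouse_628, Synpo2 of dense bodies at 2.09 against 93.2 CPM, and Myl9 at 15.5 against 186 CPM. Tpm1, a tropomyosin of many cell types, stood at 723 against 437 CPM, the caldesmon gene Cald1 at 318 against 175 CPM and the collagen gene Col1a1 at 791 against 428 CPM. Not all genes of matrix and fibroblasts were higher there, since Postn, which encodes periostin, was at 25.6 against 39.3 CPM. The fibroblast markers together were slightly higher, at 2088 against 1970 CPM. Against 6 to 10 steps, the far spots of Mouse_628 were lower for Lmod1 and Synpo2 (each 2.09 against 3.83 CPM), Mylk (58.0 against 72.9 CPM) and Postn (25.6 against 40.8 CPM). Myl9 hardly differed (15.5 against 15.0 CPM). Tpm1 (723 against 511 CPM), Tpm2 (74.8 against 42.5 CPM) and Cald1 (318 against 221 CPM) were higher. In Mouse_627 the far spots were lower than the airway-rich spots for Lmod1 (16.7 against 54.6 CPM), Synpo2 (11.3 against 126 CPM) and Myl9 (30.7 against 203 CPM). They were also lower for Tpm1 (317 against 456 CPM), Cald1 (101 against 141 CPM) and Col1a1 (117 against 255 CPM). Levels of Tpm1, Cald1 and Col1a1 above the airway-rich spots were thus seen in 1 section. These genes were chosen from the lists after their values were seen, and the values are a description.

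Spots chosen by Tagln alone were then compared by distance. Among spots of the lung of Mouse_628 with at least 6 Tagln UMIs, the 97 that lay 11 or more steps from an airway held 886 Tagln, 248 Acta2, 148 Des, 49 Actg2, 38 Cnn1 and 9 Myh11 UMIs, and 88 of them had no Myh11 UMI. The 73 such spots within 2 steps held 798 Tagln, 352 Acta2, 439 Des, 212 Actg2, 172 Cnn1 and 204 Myh11 UMIs, and 12 had none. The far spots were deeper, with 2530143 UMIs in all against 684800 in the near ones, so a cut at 6 Tagln UMIs admitted far spots with a lower share of Tagln. Beside Tagln, which chose the spots, the other 5 genes all had fewer UMIs in the far spots. Relative to the near ones, these far counts were highest for Acta2 and lowest for Myh11. In Mouse_627 the 50 near spots held 523 Tagln and 192 Myh11 UMIs, and 5 far spots held 43 and 7. No Myh11 UMI was found in 7 of these near spots and in 3 of the far ones. Spots are not replicates, and these counts compare places within a section.

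The class rich in the endothelium of arteries and veins (Vwf, Gja5, Sox17 and others) had 83 and 134 spots, of which 1 and 12 were also airway-rich. Acta2 measured 170 and 92.7 CPM in it against 131 and 57.0 CPM in other lung spots. Tagln measured 246 and 226 CPM against 177 and 142 CPM. Myh11 measured 50.4 and 57.5 CPM against 60.9 and 16.5 CPM, and thus was lower in Mouse_627 and higher in Mouse_628. The other 5 genes were higher in both mice, a direction seen in 23.4% of all genes. By edgeR without the block 0 of the 6 were called (0% of 12896 genes; DESeq2 called 1 gene among all, none of the 6, and 62 genes had an unadjusted p under 0.05). With the block Cnn1 was called (log2 difference 1.11, SE 0.32, adjusted p = 0.0493), where 0.202% of all genes were called higher, and without the sum of the other lung spots of Mouse_627 edgeR called 3 of the 6. With the elastic fibre genes Eln, Fbln5 and Mfap4 added to the vessel markers the log2 difference of Acta2 was 1.70 in place of 0.48, that of Myh11 1.74 in place of 0.49, that of Tagln 1.57 in place of 0.59 and that of Actg2 1.49 in place of 0.53, again with 0 of the 6 called by edgeR. The vessel markers themselves were at 1470 and 1222 CPM in this class against 520 and 266 CPM elsewhere, and alveolar markers were at 14855 and 12307 CPM in it.

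Lung spots rich in fibroblast and collagen markers held the members at high levels too. In Mouse_627 the 83 spots reached 772 CPM of Acta2, 927 CPM of Tagln and 383 CPM of Myh11, and the 6 genes were 6.67-fold to 11.2-fold above other lung spots. In Mouse_628 the 134 spots reached 166 CPM of Acta2, 346 CPM of Tagln and 69.6 CPM of Myh11, and the folds ran from 2.53 to 5.33. Airway markers in this class were at 3123 and 1413 CPM against 1671 and 764 CPM elsewhere. These values are given as a description with no test.

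Des was also high where heart muscle was. The 21 and 97 lung spots set aside as rich in striated muscle held Des at 513 and 638 CPM, Acta2 at 192 and 202 CPM and Myh11 at 56.1 and 92.3 CPM. Heart muscle markers in them were at 13181 and 12775 CPM. Without these spots 5 of the 6 genes were still called higher in the lung than in the primary tumour.

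**Figure D4:**
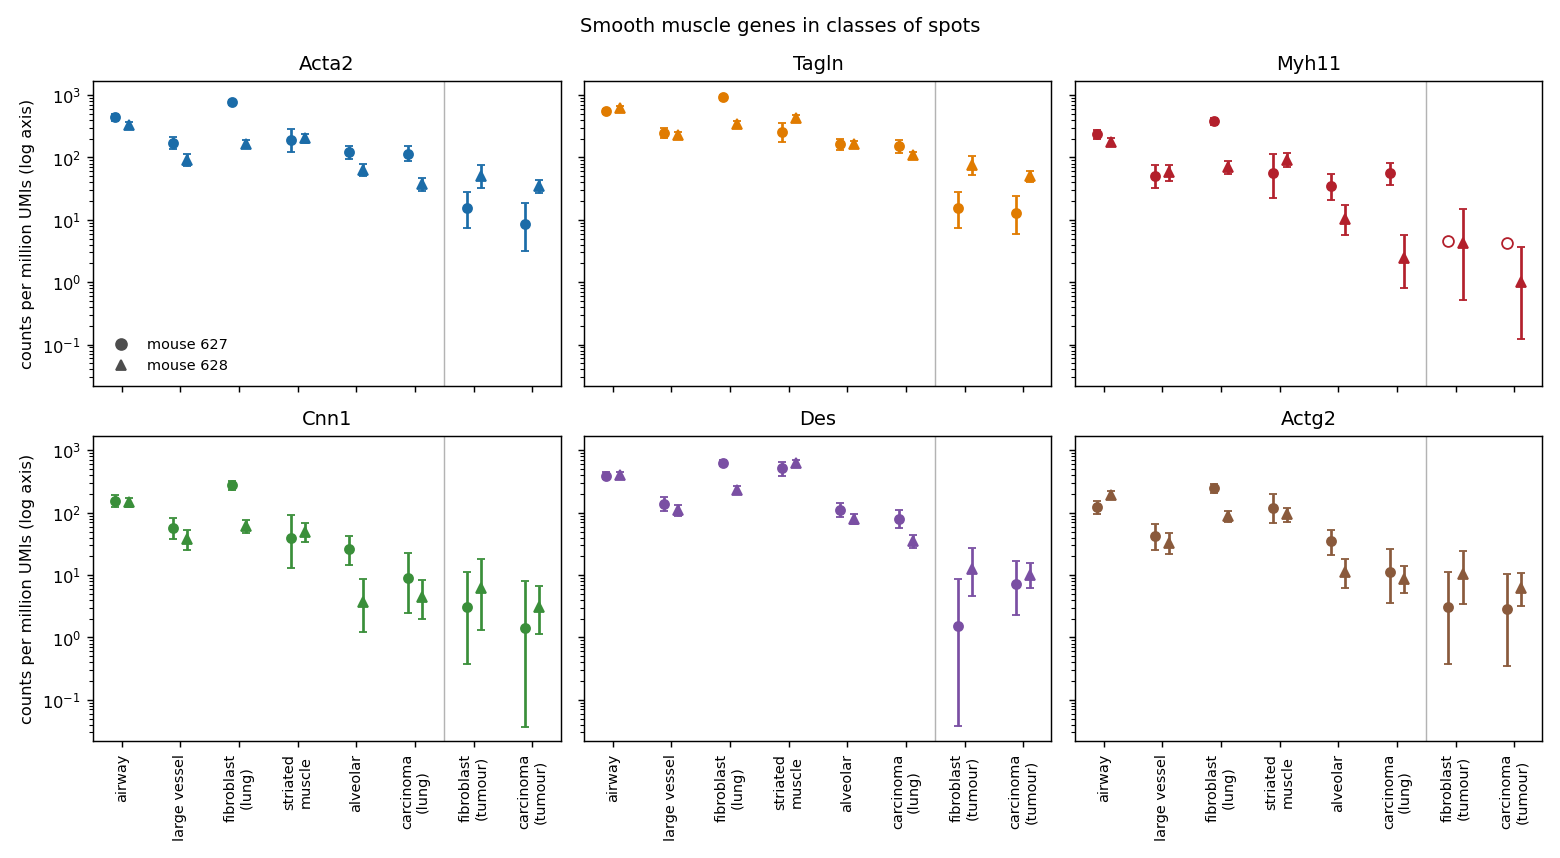
Counts-per-million (CPM) (log axis) of each gene in classes of spots, lung classes left of the grey line and primary tumour classes right of it; circles are Mouse_627, triangles Mouse_628, bars exact 95% Poisson intervals, and open symbols mark 0 UMIs, drawn at the level of 3 UMIs. Airway-rich spots stand above the carcinoma-rich lung spots for all 6 genes in both mice, and among lung classes Myh11 is lowest in carcinoma-rich spots of Mouse_628 (2.45 CPM).

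Carcinoma-rich lung spots, 83 and 134 of them, stood lower than other lung spots for all 6 genes in both mice, a direction seen in 30.2% of all genes. Acta2 measured 116 and 37.2 CPM in them against 133 and 59.6 CPM elsewhere. Tagln measured 151 and 108 CPM against 181 and 147 CPM. Myh11 measured 55.7 and 2.45 CPM against 60.6 and 18.9 CPM. In edgeR 0 of the 6 genes were called with or without the block, and 0% of 12947 genes were called without it. With the block 0% of all genes were called higher, and the share called lower is not given here. DESeq2 also called 0, and 132 genes had an unadjusted p under 0.05 without the block. Cnn1 (log2 difference -2.28, unadjusted p = 0.0399, adjusted p = 0.963 in edgeR) and Actg2 (-1.59, unadjusted p = 0.0385, adjusted p = 0.963) had the largest differences. Without the carcinoma-rich sum of Mouse_628 the Acta2 and Myh11 differences were 0.19 and 0.41, the other way. That fit sets carcinoma-rich spots of Mouse_627 against the other lung spots of both mice, and within Mouse_627 both genes were lower, as given above. The classes of the 2 mice were not equal in content, with carcinoma markers at 1332 CPM in Mouse_627 and 3433 CPM in Mouse_628, and alveolar markers at 11234 and 2171 CPM.

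The 1666 and 2678 lung spots with at least 1000 UMIs and without striated muscle were then ordered by their share of carcinoma markers into 4 equal groups. This step was added after the data were seen. All 6 genes were lower in the last group than in the first in both mice. In Mouse_628 Myh11 measured 43.6, 24.5, 14.2 and 5.85 CPM from the group with the fewest carcinoma markers to that with the most, while Tagln measured 202, 139, 120 and 140 CPM and Acta2 86.8, 62.9, 48.6 and 49.9 CPM. Cnn1 measured 30.8, 14.9, 10.4 and 8.48 CPM, Des 134, 82.8, 80.1 and 47.7 CPM and Actg2 38.0, 24.1, 15.3 and 11.2 CPM. Myh11, Cnn1, Des and Actg2 thus were lower in each group than in the one before, whereas Tagln and Acta2 were not lower in the last than in the third. The airway markers were lower along the same order, at 2580, 1113, 463 and 96.0 CPM. In Mouse_627, whose last group held 811 CPM of carcinoma markers against 2522 CPM in Mouse_628, Myh11 measured 86.4, 72.9, 44.0 and 38.7 CPM and Acta2 175, 144, 119 and 94.1 CPM. Tagln measured 228, 201, 150 and 142 CPM there and, unlike in Mouse_628, was lower in each group. Cnn1 measured 60.0, 49.8, 24.3 and 16.7 CPM and Des 169, 144, 93.2 and 82.3 CPM. Actg2 measured 43.2, 46.3, 24.6 and 20.5 CPM and was higher in the second group than in the first.

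The ratio of myosin to actin summarises this. In airway-rich spots Myh11 made up 34.8% (30.2% to 39.6%) of the sum of Myh11 and Acta2 UMIs in Mouse_627 and 35.0% (30.7% to 39.4%) in Mouse_628. In vessel-rich spots the share was 22.9% (15.2% to 32.1%) and 38.3% (29.8% to 47.3%). In carcinoma-rich lung spots it was 32.5% (22.2% to 44.1%) in Mouse_627 and 6.17% (2.03% to 13.8%) in Mouse_628. The interval of the last value lies below those of the airway and vessel classes of its section, whereas in Mouse_627 the intervals of these 3 classes overlap. The low share was not particular to carcinoma-rich spots, since alveolar-rich spots had 22.2% (14.1% to 32.2%) in Mouse_627 and 14.3% (8.04% to 22.8%) in Mouse_628, and the latter interval overlaps that of the carcinoma-rich spots and lies below those of the airway and vessel classes. Over the 4 groups of Mouse_628 the share was 33.4%, 28.0%, 22.6% and 10.5%, and over those of Mouse_627 it was 33%, 33.7%, 27.1% and 29.1%. Probes of the 2 genes may differ in efficiency, so the share compares places and not the amounts of the 2 proteins.

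**Figure D5:**
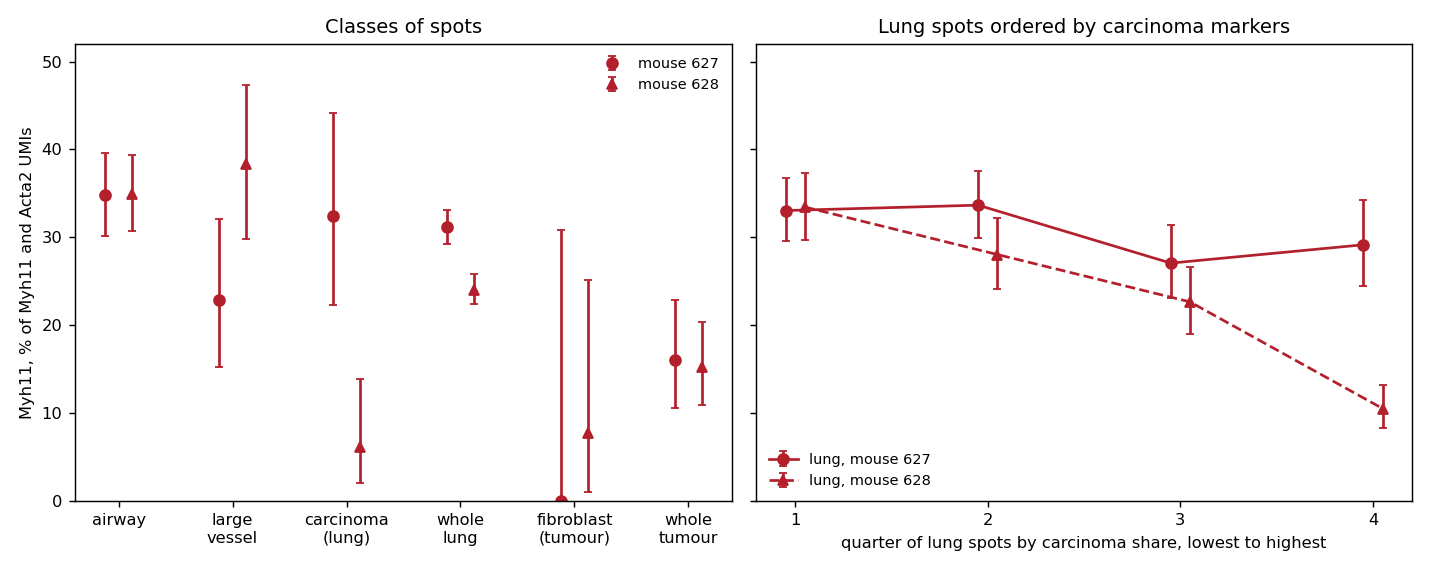
Myh11 as a percentage of Myh11 and Acta2 UMIs, with exact 95% binomial intervals, in classes of spots (left) and in 4 equal groups of lung spots ordered by carcinoma markers (right); circles are Mouse_627 and triangles Mouse_628. The airway-rich classes lie at 34.8% and 35.0%, and in Mouse_628 the share is 33.4% in the first group and 10.5% in the last.

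In the primary tumours only Tagln exceeded the 95th percentile of the receptor genes in both mice. In the primary tumour of Mouse_627 Acta2 (9.31 CPM), Tagln (17.7 CPM) and Des (5.25 CPM) lay well above the 95th percentile of the receptor genes (1.70 CPM). Myh11 and Actg2, each with 24 UMIs and 1.77 CPM, lay just above it, and Cnn1 (1.26 CPM) below. In the primary tumour of Mouse_628 only Tagln (27.2 CPM) exceeded that percentile (19.0 CPM). Acta2 (18.9 CPM) was just under it, with 5.18% of receptor genes at or above Acta2. Myh11 (3.40 CPM) lay below the median of the receptor genes, and Cnn1 (6.80 CPM), Actg2 (7.25 CPM) and Des (11 CPM) within their range. Over the whole section these 4 levels and, by that percentile, the level of Acta2 could not be told from background.

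The genes also differed in how their UMIs followed the depth of a spot. In the primary tumour of Mouse_628, spots were divided into 4 equal parts by their UMIs. Acta2 had 27.0 UMIs per 1000 spots in the shallowest part and 266 in the deepest, and Tagln had 20.2 and 384. Myh11 had 16.9 and 13.5, and a receptor gene had on average 34.4 and 32.1. Mean UMIs per spot were 1188 and 13268 in these parts. Cnn1 had 16.9 and 42.2, Actg2 18.5 and 57.3 and Des 38.8 and 67.5. Thus 5 of the 6 genes had more UMIs per spot in the deepest part than in the shallowest, and Myh11 had not. The receptor value is a mean over many genes, so whether a single gene departs from background in a part was not tested. In Mouse_627 Myh11 had 3.21 UMIs per 1000 spots in the shallowest part and 24.1 in the deepest, against a mean of 1.89 and 4.10 for the receptor genes, and over the whole section 4.75% of receptor genes were at or above Myh11.

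Spots of the primary tumours with at least 3 UMIs of Acta2 and Tagln together numbered 11 in Mouse_627 and 40 in Mouse_628. None of them held a Myh11 UMI. In Mouse_628 they carried 101 Acta2, 138 Tagln, 18 Des, 16 Actg2, 1 Cnn1 and 0 Myh11 UMIs, and 31 of the 40 adjoined another such spot, which the maps show as small clusters at the lower and right edges of the section and in its upper right. In Mouse_627 they carried 15 Acta2, 19 Tagln and 0 Myh11 UMIs, and 6 of the 11 adjoined another. They were deep, with medians of 20906 and 30858.5 UMIs against 2892 and 1802.5 in other spots. Fibroblast markers were at 1122 and 768 CPM in them against 822 and 373 CPM elsewhere, and pericyte markers at 113 and 88.1 CPM against 79.0 and 89.4 CPM. Carcinoma markers were at 3469 CPM in them against 4422 CPM elsewhere in Mouse_627 and at 7294 against 5078 CPM in Mouse_628. Of the 40 spots of Mouse_628, 18 were carcinoma-rich and 5 fibroblast-rich. In the carcinoma-rich spots of that tumour Acta2 measured 34.7 CPM against 15.5 CPM in the other spots, and Tagln 50.5 against 22.2 CPM. In Mouse_627 Acta2 measured 8.58 against 9.12 CPM and Tagln 12.9 against 18.1 CPM, so the direction differed between the mice.

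In the lung, spots with at least 3 such UMIs held a median of 5 Acta2 and Tagln UMIs in both mice, against 3 and 4 in the primary tumours, so the tumour spots gave less chance to see Myh11, and the difference was not tested. Of 323 in the lung of Mouse_627, 43.0% had no Myh11 UMI, and of 733 in that of Mouse_628, 73.5% had none. Among the airway-rich spots the share without was 29.7% (19 of 64) and 32.1% (27 of 84). Among carcinoma-rich lung spots it was 58.3% (7 of 12) and 97.6% (41 of 42), at medians of 4 and 5 Acta2 and Tagln UMIs per spot, against 6 and 8.5 in the airway-rich spots. The spots of Mouse_628 that were rich in alveolar markers also lacked it often, in 37 of 43.

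Within the primary tumours, the class richest in fibroblast markers, with 80 and 116 spots, is called tumour stroma here. These markers, collagens, Dcn and others, were at 2466 and 1798 CPM in it against 748 and 352 CPM elsewhere. The name rests on them alone. Carcinoma markers were at 4870 and 5311 CPM in this class against 4410 and 5330 CPM elsewhere, so the class was not poor in carcinoma. Acta2 measured 15.3 and 50.5 CPM in it against 8.76 and 17.6 CPM in other tumour spots. Tagln measured 15.3 and 75.7 CPM against 17.9 and 25.1 CPM, higher in Mouse_628 and lower in Mouse_627. Myh11 had 0 UMIs of 654595 in Mouse_627, with an exact upper limit of 5.64 CPM (3 UMIs would be 4.58 CPM), and 2 UMIs in Mouse_628 (4.21 CPM), against 1.69 and 3.28 CPM in other tumour spots. Of the 6 genes Acta2 and, on 2 and 5 UMIs, Actg2 were higher in fibroblast-rich spots of both mice, a direction seen in 21.6% of all genes. By edgeR 0 of the 6 genes were called, with 0.027% of 18531 genes called without the block and 0.108% called higher with it (DESeq2 also called 0 of the 6, and 53 genes had an unadjusted p under 0.05 without the block). Acta2 had a log2 difference of 1.18 (SE 0.48, unadjusted p = 0.0169, adjusted p = 1.00 in edgeR) and Tagln one of 0.90 (SE 0.42, unadjusted p = 0.0347).

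Airway-rich and vessel-rich lung spots were joined to an airway and vessel class (165 and 256 spots) and set against this tumour stroma, and all 6 genes were higher in both mice. The class is named by its markers, and its vessel-rich spots, with alveolar markers at 14855 and 12307 CPM and 0 of the 6 genes called against other lung spots by edgeR, were not shown to be muscular wall. The lowest excess was that of Acta2 in Mouse_628, with 208 CPM in the class and 50.5 CPM in the stroma, a ratio of 4.12 (2.72 to 6.51). In Mouse_627 Acta2 had 321 CPM in the class and 15.3 CPM in the stroma, a ratio of 21 (11.3 to 44.2). Tagln had 417 and 424 CPM in the class and 15.3 and 75.7 CPM in the stroma. Myh11 had 155 and 117 CPM in the class against 0 and 4.21 CPM in the stroma. Summed over the mice, its ratio was 74.2 (20.4 to 615) on 370 and 2 UMIs, and that of Acta2 was 8.34 (5.91 to 12.1) on 707 and 34 UMIs. The sum joins unlike mice. In Mouse_627 alone the interval of Myh11 began at 27.2 and that of Acta2 ran from 11.3 to 44.2, so they overlapped, and in Mouse_628 Myh11 had 27.8 (7.59 to 231) against 4.12 for Acta2. The 2 stromal Myh11 UMIs are no more than the 3 UMIs that the median receptor gene level gives for those spots. For Cnn1 the ratio was 36.7 in Mouse_627 and 14.2 in Mouse_628, for Des 184 and 21.1 and for Actg2 28.1 and 11.1, on 1 to 6 stromal UMIs of each gene and mouse. Cnn1 had 3 stromal UMIs in Mouse_628, the number that the background gives.

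Acta2 and Tagln were called higher in the class by edgeR (32.7% of 10526 genes were called in this comparison, in either direction). The other 4 genes had at most 6 stromal UMIs in a mouse and entered the test only through their lung counts, so that a difference was set by the filter and their fitted values are a description. For Myh11 the fit gave 6.22 on the log2 scale (SE 0.61), on 2 stromal UMIs. For Des it gave 5.48 (SE 0.49), for Cnn1 4.53 (SE 0.45) and for Actg2 4.07 (SE 0.48). Tagln rose by 3.35 (SE 0.53, adjusted p = 0.00215) and Acta2 by 3.14 (SE 0.47, adjusted p = 0.00171), and differences between genes were not tested. With the block Acta2 and Tagln were called as well (18.8% of all genes were called higher), and a separation of both class sums from both stroma sums upward was seen in 33.3% of all genes. Lung spots outside the class also stood above the stroma for most of the genes. They held Acta2 at 112 and 48.6 CPM, the latter below the 50.5 CPM of the stroma of Mouse_628, Tagln at 154 and 127 CPM and Myh11 at 50.2 and 11.5 CPM. Cnn1 in them was at 29.6 and 9.09 CPM, Des at 105 and 64.9 CPM and Actg2 at 28.1 and 12.9 CPM, above the stroma in both mice. Organ and class differ together in this comparison, and their parts cannot be told apart.

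Of the other smooth muscle genes, 31 could be tested in this comparison, of which 14 were called higher in the class and 2 lower. The tally is a description and no support for the list, since it holds genes that, like the 4 members above, were tested through their lung counts. Lmod1, Pdlim3, Pgm5 and Synpo2 were at 0 CPM in the stroma of Mouse_627 and at 2.10 to 12.6 CPM in that of Mouse_628. Myl9 was at 3.06 and 12.6 CPM in the stroma and Cacna1c at 1.53 and 4.21 CPM. Ppp1r14a was at 15.3 and 10.5 CPM there and Tpm2 at 9.17 and 35.8 CPM, so both also entered the test through their lung counts. For these genes the fitted log2 differences below are a description. Of the 5 genes of the myosin light chains tested 3 were called higher. Mylk rose by 3.38 (adjusted p = 0.000259) in edgeR, and Ppp1r14a and Myl9 had fitted values of 4.26 and 4.31. Of the thin filament, Tpm2 and Lmod1 had fitted values of 4.19 and 4.36. Cald1 fell by 1.39 (adjusted p = 0.00308), with 411 and 402 CPM in the stroma and 128 and 166 CPM in the class. The other gene that fell was Smtn, named after its value was seen (log2 difference -1.06, adjusted p = 0.0160). Of 9 genes of dense bodies and attachment 6 were called higher, among them Pdlim3, Pgm5 and Synpo2 with fitted values of 4.55, 3.72 and 3.68. In the list of transcriptional regulators Mrtfa rose (1.32, adjusted p = 0.0132), and in that of ion handling the calcium channel gene Cacna1c had a fitted value of 2.67. Of 8 pericyte markers tested 4 were called higher, among them Higd1b (fitted value 2.71) and Notch3 (2.46). Higd1b was at 4.58 and 10.5 CPM in the stroma and Notch3 at 4.58 and 8.41 CPM. Both were thus tested through their lung counts, and their values are a description. Of 7 fibroblast markers 0 rose and 3 fell, a list that had chosen the stroma.

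Correlations between the members were higher in the lungs than in the primary tumours. Over square blocks of the array (108 and 177 blocks in the lungs), the 15 pairs of members had a median correlation of 0.749 (0.623 to 0.788) in Mouse_627 and 0.711 (0.587 to 0.804) in Mouse_628. Over 160 and 152 blocks of the primary tumours the median was 0.0711 and -0.00494. The highest pair was Acta2 and Des in Mouse_627, at 0.317, and Acta2 and Tagln in Mouse_628, at 0.337, while Acta2 and Tagln had 0.275 in Mouse_627. Blocks of a section share its library, and sparse counts lower a correlation, so these values are descriptions.

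By this measure, averaged over the 4 sections among 6784 genes with enough UMIs, Acta2 was most like Tagln (mean 0.547), Col1a2 (0.396), Csrp1 (0.369), Col1a1 (0.361) and Tmem212 (0.349). Myh11 was most like Gsn (0.348), Mylk (0.329), Tagln (0.315), Tmem212 (0.307) and Bphl (0.293). In the 2 lungs alone, an alternative added after the data were seen, Acta2 was most like Tpm2 (0.797), Tagln (0.788), Cnn1 (0.736), Myh11 (0.719) and Actg2 (0.707). Myh11 was most like Tpm2 (0.773), Synpo2 (0.767), Cnn1 (0.765), Myl9 (0.742) and Sult1d1 (0.732). The 2 rankings had different candidates and are not compared, since Acta2, Myh11, Cnn1, Des and Actg2 each had fewer than 200 UMIs in a primary tumour and so, of the members, only Tagln could be named in the ranking over 4 sections.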

How the data were processed

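The authors deposited raw UMI counts (whole-number counts) for each gene in each spot, and spot positions, written by Space Ranger 2.0.0 on mm10, with no normalization. Spots with over 200 genes were kept. CPM were computed on the kept UMIs of a section or class. Members and lists were chosen with earlier results of these data known. Counts were summed per section or class and tested in R 4.3.3 with edgeR 4.0.16 (filterByExpr, TMM, quasi-likelihood test, Benjamini-Hochberg adjustment, threshold 0.05), the 2 mice being the replicates. DESeq2 1.42.0 was an alternative. Spots are not replicates and no doublet caller was run.

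Classes were the highest 5% of spots with at least 1000 UMIs by marker share. Lung spots with at least 0.5% of UMIs in striated muscle markers, and tumour spots with at least 0.5% in epidermis markers, were set aside. Of the airway markers Scgb1a1 and Scgb3a1 were not analysed here. Correlations were taken on log2(CPM + 10) over blocks of 4 rows and 8 columns with at least 8 spots, and likeness among genes with at least 200 UMIs in every section. Per list at most 3 called genes with the largest difference were named, or with no call the 2 with the highest CPM, and all 6 members always.

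The sums compared within a mouse share their animal and are thereby paired. Their deviations from the class means had correlations of 0.603, 0.579, 0.843 and 0.792 for airway, vessel, carcinoma and fibroblast classes, -0.241 for lung against primary tumour and -0.0548 for airway-rich and vessel-rich lung spots together against tumour stroma. With 1 residual degree of freedom the blocked fit leans on a spread shared across genes. On simulated counts for lung against primary tumour (15267 genes), 67.3% of genes changed 4-fold and 98% of genes changed 8-fold were recovered without the block, with 0 unchanged genes called. The simulated tissues of a mouse shared a deviation, unlike those of the data (-0.241), and the spread was a fixed setting. Python 3.11.15, numpy 2.4.6, scipy 1.17.1 and matplotlib 3.10.9 were used for the rest.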

Additional observations from a re-analysis of the deposited data

How the results depend on the processing

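Of the values of single members recomputed under each alternative that applied, 347 kept both direction and side of the threshold, 31 newly passed it, 16 no longer passed and 17 changed direction. For lung airway-rich and vessel-rich spots against tumour stroma the calls of Acta2 and Tagln held in every setting that was tried. For lung against primary tumour the number called was 5, 3 with library totals in place of TMM, which moved the median log2 difference of all genes from -0.00 to -0.31, and 3 to 6 when a section was left out (3 without the lung of Mouse_627). The blocked fit, DESeq2 and the fit with no filter on low counts called 6, spots with at least 1000 UMIs gave 4, and the crossed pairing of the mouse numbers, chosen after seeing the data, also 6 (2565 of all genes against 1817). For airway-rich spots the number called was 3, but 6 with the mouse as a block, with DESeq2, without the filter on low counts and with the highest 2% of spots, 0 with the highest 10% and 0 with striated muscle kept, and 0 to 6 when a sum was left out (0 without the airway-rich spots of Mouse_628, 6 without the other lung spots of Mouse_627 or Mouse_628). For vessel-rich spots it was 0, 1 with the replicate block and 0 to 3 when a sum was left out, and stayed 0 with elastic fibre genes added to the vessel markers, although all 6 differences were then larger (0.95 to 1.74). The causes were not tested.

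No member was called in the carcinoma-rich and fibroblast-rich comparisons under any alternative. A fit with a sum left out sets a single mouse against both, and the mice differed in level. In such fits some log2 differences ranged across 0. For carcinoma-rich spots they ran from -1.53 to 0.35 for Acta2 (0.19 without the carcinoma-rich spots of Mouse_628) and from -4.18 to 0.52 for Myh11 (0.41), and for vessel-rich spots from -0.048 to 1.33 for Acta2 and from -0.18 to 1.87 for Myh11, whose upper ends, without the other lung spots of Mouse_627, were called (adjusted p = 0.0304 and 0.0159 in edgeR). In tumour stroma they ran from -0.35 to 1.14 for Actg2, -0.23 to 0.53 for Cnn1, -2.28 to 0.45 for Des, -7.24 to 0.57 for Myh11 and -0.40 to 1.61 for Tagln. The highest 2% of spots turned Actg2 (-0.44), Cnn1 (-0.30) and Des (0.30), and the highest 10% Cnn1 (-0.96) and Des (0.15). The Myh11 share of carcinoma-rich lung spots in Mouse_627 was 50.0% (26.0% to 74.0%) in the highest 2% of spots, on 9 Myh11 and 9 Acta2 UMIs. After subtracting the receptor background the share was 11.9% (6.98% to 18.7%) in the primary tumour of Mouse_627 and 0% in that of Mouse_628, against 16% and 15.2% before. In the fibroblast-rich spots of Mouse_628 it was 0% after the subtraction, against 7.69% before.

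With 2 mice, the unblocked test recovered 2% of changes of 2-fold on simulated counts for lung against primary tumour. The blocked test recovered 76% of them on these counts, with 6 unchanged genes called. The simulation gave both tissues of a mouse a shared deviation, which favours the block, whereas the correlation in the data was -0.241. These recoveries therefore do not measure the power of either test in the data. No spot outline from histology was used. The few Myh11 UMIs of the primary tumours set the width of every ratio that rests on them.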
